A study of Rattus norvegicus with 12 samples.

Results

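Matrix metalloproteinases (MMPs) and their tissue inhibitors (TIMPs) were followed in the uterus of ovariectomized rats given an estrogen, an aryl hydrocarbon, or both. The group comprised 9 genes: the metalloproteinases Mmp2, Mmp3, Mmp7, Mmp9, Mmp11 and Mmp14 and the inhibitors Timp1, Timp2 and Timp3. They were picked by symbol out of 14506 genes that had a probe set annotated with a single symbol, and each of the 9 had exactly 1 probe set. Mmp3 lay among the dimmest 30% of genes, which were left out of testing, so 8 of the 9 members were among the 10154 genes tested.

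All rats, the controls included, were ovariectomized young adult Lewis females, and each was dosed on 3 days running, with the uterus taken 24 h after the last dose. The vehicle group received dimethyl sulfoxide (DMSO). The E2 group received 17β-estradiol at 4 µg/kg/d, the 3-MC group received 3-methylcholanthrene at 15 mg/kg/d, and the E2+3-MC group received the combination, for which the series gives no separate doses. Each of the 4 groups held 3 rats with 1 array per rat, 12 arrays in all. 3-MC is a polycyclic aromatic hydrocarbon and a classical ligand of the aryl hydrocarbon receptor. Ovariectomy removes the main source of circulating estrogen, so the E2 group is hormone replacement on an atrophic organ and not a natural cycle.

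MMPs are zinc-dependent endopeptidases that are made as inactive zymogens, are opened by other proteases, and then cut collagens, proteoglycans, cell surface proteins and one another. TIMPs bind the active site and block it, so proteolysis depends on the balance of enzymes, activators and inhibitors. In the uterus the family is known for matrix turnover during the cycle, implantation, parturition and postpartum involution. An array measures messenger RNA and not zymogen activation or enzyme activity.

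Whole uteri were extracted, so fewer cells of a type and less RNA per cell cannot be told apart in any value below. All 8 smooth muscle markers and all 10 epithelial markers were bright enough to be tested. Only the dimmest 30% of genes were not, so this is a weak check of the tissue label. The estrogen marker C3 rose by 6.69 on the log2 scale with E2, S100g rose by 4.93, Pgr rose by 0.68 and Clu fell by 3.41. No measured target of the aryl hydrocarbon receptor on the marker list was called with 3-MC. Cyp1a1 had 27.3, 20.2 and 32.2 with 3-MC and 29.8, 28.2 and 15.3 with vehicle, and Cyp1a1, Cyp1b1 and Ahrr were too dim to be tested. Nqo1 was tested and had 59.5, 66.3 and 51.3 with 3-MC against 99.4, 60.9 and 60.4 with vehicle, a log2 difference of -0.23 ± 0.21 (SE; limma, adjusted p = 1.00). Array medians ran from 86.3 to 124 intensity units. Vehicle rat 1 stood apart in the spread of its values: the middle 50% of its log2 levels covered 2.70 units, while the same stretch covered 1.87 to 2.35 units in the other 11 rats. It was the brightest vehicle array for 7 of the 9 members, all but Mmp3 and Mmp7. Its adipocyte markers summed to 13368 against 664 to 6463 in the other 11 rats, and its stromal markers to 10265 against 3798 to 5782. Without it the median difference of all genes between E2 and vehicle moved from -0.11 to 0.07, and values that it moves by much are given without it too.

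With E2, Mmp7 rose 139-fold from intensities near the low end of the array, the inhibitor Timp1 rose 6.97-fold, and Mmp9, Mmp11 and Timp3 fell. In the plot of intensities by rat, Mmp7 and Timp1 separate the rats given E2, alone or with 3-MC, from the other rats. The share of each gene's variance that lay between the 4 groups was 98.98% for Mmp7 and 95.5% for Timp1. It was 69.3% for Mmp9, 68.2% for Timp3, 65.1% for Mmp3, 56.4% for Mmp11 and 47.5% for Mmp2. For Mmp14 and Timp2 it was 10.7% and 14.3%, below the median of 39.7% over all genes tested.

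**Figure D1:**
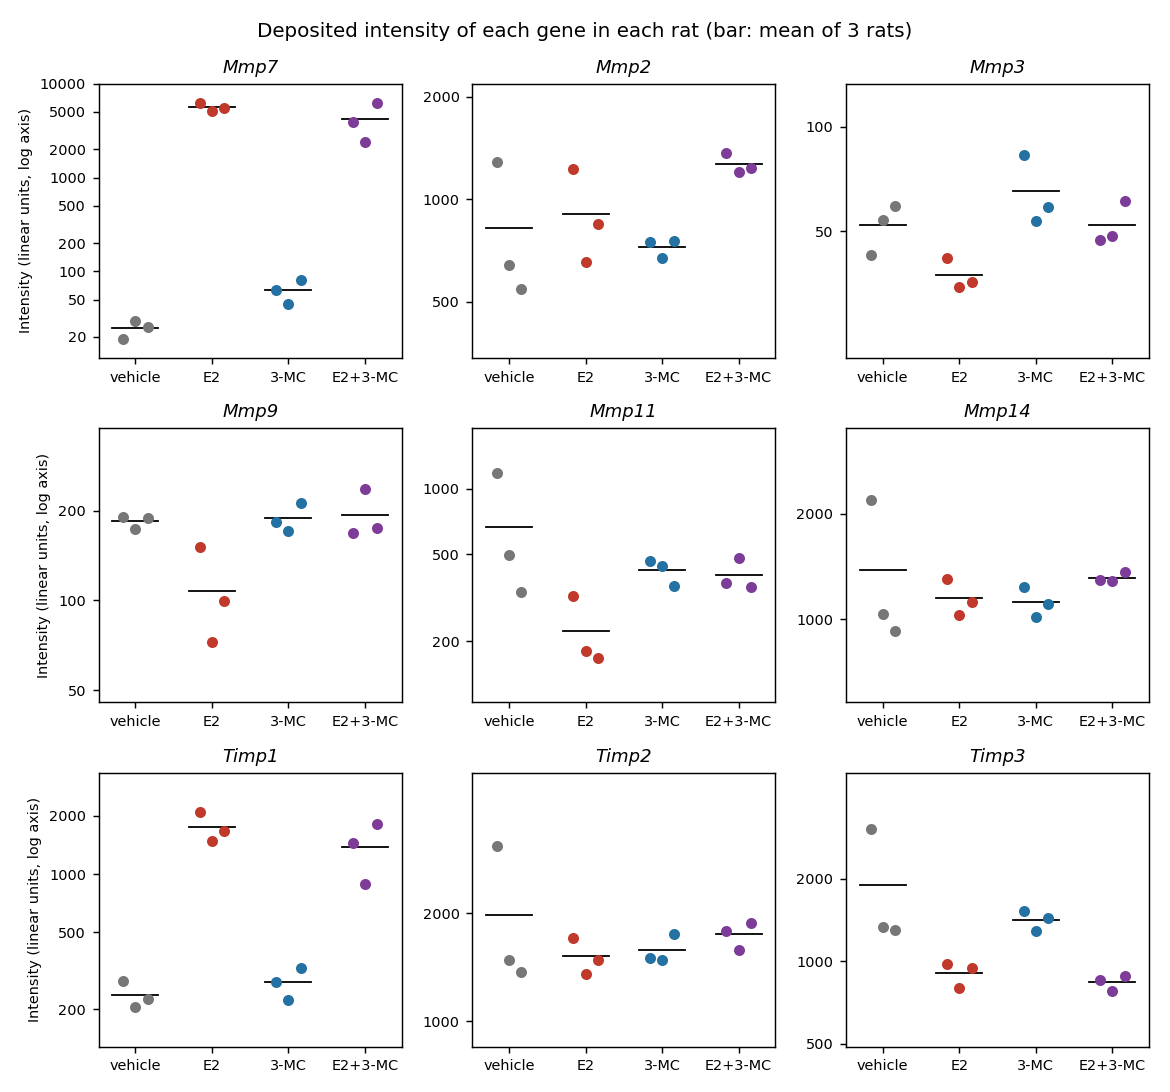
Intensity of the 9 genes in each rat (log axis, linear intensity units), by treatment group, with 3 rats per group and a bar at each group mean. For Mmp7 the 6 rats without E2 lie between 19.2 and 80.9 and the 6 rats given E2 between 2415 and 6252.

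Mmp7, matrilysin, is the smallest of these enzymes, lacks the hemopexin-like domain of most others, and is made mainly by glandular and surface epithelium. Its intensities were 19.2, 29.8 and 25.3 in the vehicle rats. They were 6252, 5050 and 5544 in the E2 rats. With 3-MC alone they were 63.1, 44.6 and 80.9, and with E2+3-MC they were 3937, 2415 and 6239. Every rat given E2 was far above every rat that was not, and the 3-MC rats sat above the vehicle rats without overlap.

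On the log2(intensity + 16) scale, which understates the change of dim genes, Mmp7 was 7.11 ± 0.28 (SE, n = 3 and 3) higher with E2 than with vehicle, a 139-fold difference (limma, adjusted p = 1.04e-11). With an offset of 1 in place of 16 the difference was 7.79, and with an offset of 64 it was 5.996. The same gene was 6.60 higher with E2+3-MC than with vehicle, 96.7-fold (adjusted p = 3.62e-11). Against 3-MC alone, the E2+3-MC rats were 5.66 higher, 50.6-fold (adjusted p = 3.70e-10). These calls held in each of the 24 other settings and left-out rats.

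Mmp7 sits at one end of a run of metalloproteinase genes on rat chromosome 8. In RefSeq order the run is Mmp13, Mmp12, Mmp3, Mmp1, Mmp10, Mmp8, Mmp27, Mmp20 and Mmp7, with 1 other protein-coding gene between Mmp12 and Mmp3. All 9 were on the array. By the mean over 12 arrays Mmp7 alone passed the limit for testing, and it passed through the rats given E2, since its means with vehicle and with 3-MC were 5.34 and 6.28 against a limit of 6.44 log2 units. The 100 bases before each annotated start, from RefSeq on build GRCr8, are printed to show what the start regions share. Capitals mark matches to the AP-1 motif TGANTCA, which reads the same on both strands, and to a TATA motif, TATAAA, on the gene's strand.
Mmp13 (chr8:12782729-12782828, plus strand): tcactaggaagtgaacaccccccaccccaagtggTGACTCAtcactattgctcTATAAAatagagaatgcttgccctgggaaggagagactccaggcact
Mmp12 (chr8:12866552-12866651, plus strand): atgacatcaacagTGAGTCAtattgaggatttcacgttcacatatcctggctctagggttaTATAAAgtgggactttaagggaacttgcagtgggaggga
Mmp3 (chr8:12925181-12925280, plus strand): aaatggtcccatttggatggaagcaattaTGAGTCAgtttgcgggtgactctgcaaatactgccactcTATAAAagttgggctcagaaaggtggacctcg
Mmp1 (chr8:12943353-12943452, plus strand): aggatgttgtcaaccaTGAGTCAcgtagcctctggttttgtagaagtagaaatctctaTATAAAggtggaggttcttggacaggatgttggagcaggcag
Mmp10 (chr8:12974607-12974706, plus strand): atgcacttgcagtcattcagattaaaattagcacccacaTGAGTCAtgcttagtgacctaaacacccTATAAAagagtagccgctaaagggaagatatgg
Mmp8 (chr8:13008790-13008889, plus strand): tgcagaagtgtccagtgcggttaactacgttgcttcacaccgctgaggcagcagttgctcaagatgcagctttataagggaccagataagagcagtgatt
Mmp27 (chr8:13030652-13030751, plus strand): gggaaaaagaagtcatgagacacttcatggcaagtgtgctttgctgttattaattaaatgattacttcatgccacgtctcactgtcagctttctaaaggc
Mmp20 (chr8:13074179-13074278, plus strand): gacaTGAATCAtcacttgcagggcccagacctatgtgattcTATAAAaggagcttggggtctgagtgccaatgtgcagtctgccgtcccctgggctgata
Mmp7 (chr8:13132943-13133042, plus strand): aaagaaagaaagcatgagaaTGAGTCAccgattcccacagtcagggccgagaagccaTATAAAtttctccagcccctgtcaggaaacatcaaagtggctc
The AP-1 letters occur within these 100 bases in 7 of the 9 genes, 77.8%, and within 250 bases in the same number. In the 33465 RefSeq promoters searched over 250 bases, 6.34% hold them. The TATA letters, searched on both strands over 250 bases, are in 8 of the 9 genes and in 12.9% of all promoters. In the Mmp8 window they lie on the opposite strand only and are not capitalised. The start of the AP-1 match lies 80 bases before the start of Mmp7 and 71 before that of Mmp3, while it lies 61 before Mmp10 and 96 before Mmp20. AP-1 is the dimer formed by Fos and Jun proteins. The matches are letters in a window, and neighbours in this run share ancestry.

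The 8 neighbours of Mmp7 had means over the 12 arrays under the limit, although Mmp12, Mmp20 and Mmp27 passed it in 1 or 2 of the groups. Mmp3, stromelysin-1, which cuts proteoglycans and can open other zymogens, had intensities of 42.7, 54.1 and 59.3 with vehicle. The E2 rats were at 41.9, 34.6 and 35.7, the 3-MC rats at 83.2, 53.7 and 58.8, and the E2+3-MC rats at 47.1, 48.6 and 61.1. The 3 E2 rats were below the 3 vehicle rats, by 0.34 ± 0.18 (SE) on the log2 scale, at levels where the gene was left out of testing.

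Mmp12, macrophage elastase, had 66.7, 41.6 and 44.4 with vehicle and 28.02, 18.9 and 12.04 with E2. It had 69.5, 65.5 and 189.6 with 3-MC, and 63.5, 81.6 and 34.4 with E2+3-MC. All 3 E2 rats were below all vehicle rats, and 3-MC rat 3 lay far above every other rat. With E2, 3 of 7 tested markers rose and 0 fell, and the summed intensity of 8 was 4200 to 5720 against 1496 to 4431 in vehicle. 3-MC rat 3 had a macrophage sum of 2907, against 1683 and 1699 in the other 3-MC rats. The part of these markers in the Mmp12 values was not tested. Mmp8, neutrophil collagenase, lay between 20.6 and 37.4 in all 12 rats, and Mmp13, the main rodent interstitial collagenase, between 13.5 and 29.8. Mmp20, an enzyme of forming tooth enamel, lay between 42.1 and 114 in the rats given E2 and between 21.3 and 61.3 in the others, so these overlapped.

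**Figure D2:**
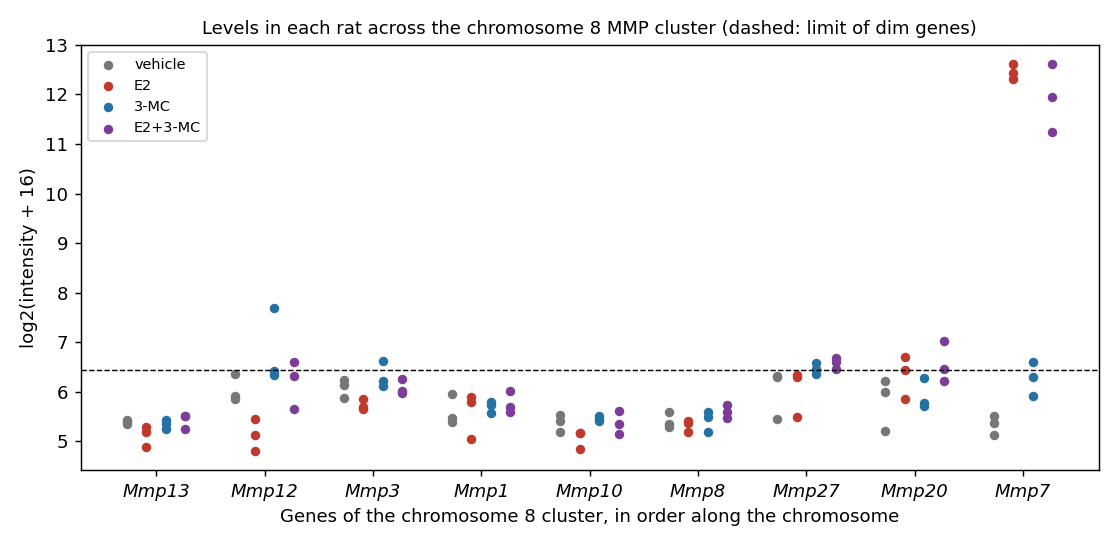
Log2 levels of the 9 metalloproteinase genes in their chromosomal order, 12 rats each, coloured by group. The dashed line marks the limit for testing. At Mmp7 the 6 rats given E2 lie far above the other 6. At the other 8 genes, all too dim to be tested, they overlap with rats not given E2.

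Over the 12 arrays the genes whose centred log2 profile lay closest to that of Mmp7 were Cuzd1, C3 and Prss32, with root mean square differences of 0.23, 0.37 and 0.45 against a range of 7.48 for Mmp7 itself. Cuzd1 encodes an estrogen-regulated uterine protein, C3 is a complement component that estrogen induces in rat uterine epithelium, and Prss32 is a serine protease. Their log2 differences between E2 and vehicle were 6.99, 6.69 and 7.26.

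Timp1, a secreted inhibitor of most MMPs, was the other member that rose. Its intensities were 279, 204 and 225 with vehicle and 2095, 1479 and 1668 with E2. They were 277, 223 and 328 with 3-MC and 1446, 884 and 1822 with E2+3-MC. All 6 rats given E2 were above all 6 that were not. The log2 difference was 2.80 ± 0.25 (SE) between E2 and vehicle, 6.97-fold (limma, adjusted p = 4.51e-07). It was 2.42 between E2+3-MC and vehicle (adjusted p = 3.57e-06) and 2.22 between E2+3-MC and 3-MC (adjusted p = 1.20e-05). The closest profiles were those of Itgb6, an epithelial integrin subunit, Fos, and Ctse, an aspartic protease, at 0.20, 0.20 and 0.21 against a range of 3.26 for Timp1.

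Part of the epithelial marker list moved with both genes. With E2, 6 of 10 markers rose, 1 fell and 3 were not called, beside 8.7% of all genes higher and 9.45% lower. Of those that rose, keratin Krt8 was higher by 2.93, Krt19 by 2.65, Krt7 by 2.03 and the tight junction gene Cldn7 by 1.72 on the log2 scale. After quantile normalization 7 markers rose and 2 fell, beside 19% and 19.4% of all genes. The summed intensity of the 10 was 13359 to 15764 with E2, against 3788 to 7863 with vehicle, 3521 to 4592 with 3-MC and 6960 to 13971 with E2+3-MC. Vehicle rat 1, the array with the widest spread, had the highest epithelial sum of the vehicle rats, 7863. It had the lowest Mmp7 intensity of all 12 rats, 19.2, near the low end of the array. After quantile normalization its Mmp7 log2 level was 5.34, close to the 5.38 and 5.36 of the other vehicle rats. Among the E2+3-MC rats, rat 2 had the lowest epithelial sum, the lowest Mmp7 and the lowest Timp1. The part of the epithelial markers in either rise was not tested.

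**Figure D3:**
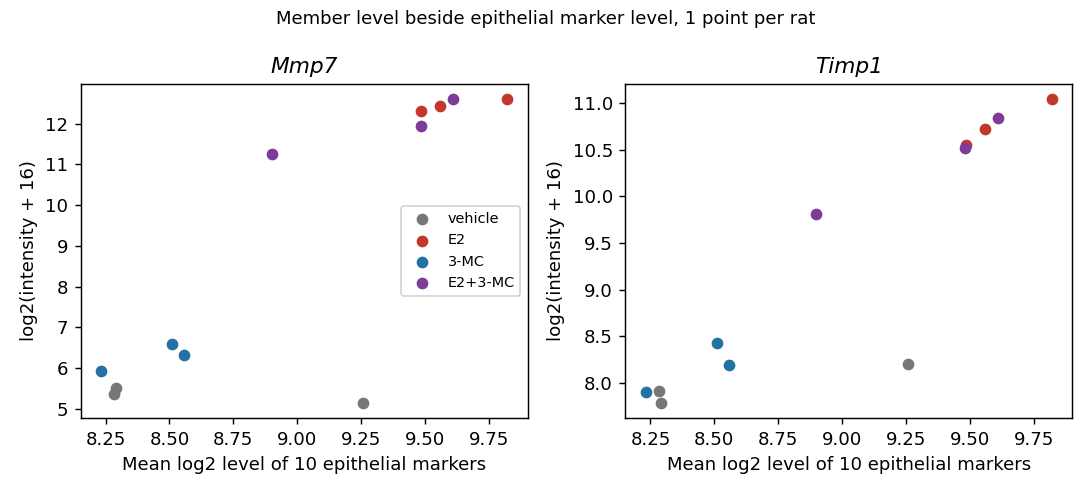
Mmp7 and Timp1 log2 levels of each rat against the mean log2 level of the 10 epithelial markers, coloured by group. Vehicle rat 1 lies towards the E2 rats on the epithelial axis and with the vehicle rats for Mmp7, and E2+3-MC rat 2 lies lowest of the rats given E2.

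The gelatinases cut denatured collagen and type IV collagen of basement membranes. Mmp9, gelatinase B, which neutrophils also carry, had 190, 174 and 189 with vehicle and 151, 72.7 and 99.4 with E2. It had 184, 171 and 213 with 3-MC and 169, 237 and 175 with E2+3-MC. The 3 E2 rats were the lowest of the 12, and the other groups overlapped. Mmp9 fell by 0.75 ± 0.22 (SE) on the log2 scale with E2 (limma, adjusted p = 0.0273). Of 4 neutrophil markers tested, 3 rose with E2, S100a9 by 2.73 and S100a8 by 1.95, and Mpo fell by 1.17. The summed intensity of all 8 on the list was 729 to 1174 with E2 and 327 to 611 with vehicle, with Elane, Ngp, Camp and Cxcr2 too dim to be tested. Their part in the Mmp9 values was not tested. Adipocyte markers (4 of 5 tested fell with E2) and blood markers (3 of 3 fell) also moved with the falls of Mmp9, Mmp11 and Timp3. Summed intensities were 2362 to 2536 with E2 and 2047 to 13368 with vehicle for adipocytes, and 807 to 2523 against 4189 to 8678 for blood. Their part in these falls was not tested. The call for Mmp9 was lost without E2 rat 2, E2 rat 3 or vehicle rat 2 (adjusted p = 0.157, 0.0973 and 0.0506). It was also lost when only the E2 and vehicle rats were fitted (limma, adjusted p = 0.111).

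Mmp2, gelatinase A, is made mainly by stromal cells. Its intensities were 1289, 640 and 546 with vehicle, 1227, 654 and 844 with E2, 747, 671 and 752 with 3-MC, and 1368, 1203 and 1238 with E2+3-MC. The E2+3-MC rats lay above all 3-MC rats but overlapped the range of the vehicle rats and that of the E2 rats. The difference between E2 and vehicle was 0.19 (95% interval -0.39 to 0.77, adjusted p = 0.672), and that between E2+3-MC and vehicle was 0.71 (0.13 to 1.29, limma, adjusted p = 0.149). Without vehicle rat 1 both were called: Mmp2 was 0.56 higher with E2 (limma, adjusted p = 0.0356) and 1.08 higher with E2+3-MC (adjusted p = 0.000340). Of all genes, 34.9% and 26.6% were called in these comparisons without that rat. The E2 difference was -0.05 without vehicle rat 3 and also -0.05 without E2 rat 1. The E2+3-MC difference went to 0.47 without vehicle rat 3.

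Mmp11, stromelysin-3, is a stromal enzyme that furin-type convertases open inside the cell. It had 1181, 494 and 335 with vehicle, 322, 181 and 168 with E2, 467, 442 and 360 with 3-MC, and 369, 479 and 356 with E2+3-MC. All 3 E2 rats were below every other rat, and vehicle rat 1 was more than 2-fold above the next rat. Mmp11 fell by 1.37 ± 0.34 (SE) on the log2 scale with E2 (limma, adjusted p = 0.00943), and by 0.87 without vehicle rat 1 (adjusted p = 0.00495). Without E2 rat 2 or rat 3 it was not called (adjusted p = 0.0509 and 0.0622). Of 7 stromal markers tested, 1 rose and 1 fell with E2, and their summed intensity was 4323 to 5782 with E2 and 3798 to 10265 with vehicle.

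Mmp14, a membrane-anchored enzyme that opens pro-MMP2 at the cell surface together with Timp2, barely moved. It ran from 926 to 2200 with vehicle, 1028 to 1306 with E2, 1017 to 1236 with 3-MC and 1282 to 1369 with E2+3-MC. Its difference between E2 and vehicle was -0.16 (95% interval -0.70 to 0.38, adjusted p = 0.698), which turned to 0.22 without vehicle rat 1. Timp2 ran from 1373 to 3090 with vehicle, 1355 to 1710 with E2, 1482 to 1753 with 3-MC and 1578 to 1883 with E2+3-MC. Its difference was -0.29 (-0.82 to 0.24, limma, adjusted p = 0.455), or 0.08 without that rat. For both genes the E2 and vehicle rats overlapped, and the intervals include changes of over 1.5-fold downwards. The 3 E2+3-MC rats lay above the 3 3-MC rats for Mmp14, by 0.23 (95% interval -0.31 to 0.77, adjusted p = 0.722).

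Timp3, the inhibitor that stays bound to the matrix and also blocks several ADAM proteases, had 3042, 1335 and 1301 with vehicle and 976, 797 and 947 with E2. It had 1527, 1283 and 1431 with 3-MC and 856, 779 and 886 with E2+3-MC. The 6 rats given E2 lay below the 6 that were not. Timp3 fell by 0.94 ± 0.26 (SE) on the log2 scale with E2 (limma, adjusted p = 0.0189) and by 0.54 without vehicle rat 1 (adjusted p = 0.0150). Without E2 rat 2 or rat 3 it was not called (adjusted p = 0.0840 and 0.0566), nor when only the E2 and vehicle rats were fitted (limma, adjusted p = 0.0749). Endothelial markers, 7 of 8 of which fell with E2, moved with it: their summed intensity was 1769 to 1940 with E2 and 2689 to 5176 with vehicle. Their part in the difference was not tested.

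Across E2 and vehicle, 2 of the 8 tested members thus rose and 3 fell. Over all genes tested, 18.2% were called, 8.7% higher and 9.45% lower. The groups did not overlap for 5 of the 8 members and for 27.2% of all genes. The median difference was -0.23 for the members and -0.11 for all genes. Leaving out E2 rat 2 or E2 rat 3 left 2 calls, those of Mmp7 and Timp1, while 11.4% and 9.85% of all genes were called. Leaving out vehicle rat 1 gave 6, with Mmp2 added, while the share of all genes called went to 34.9%.

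**Figure D4:**
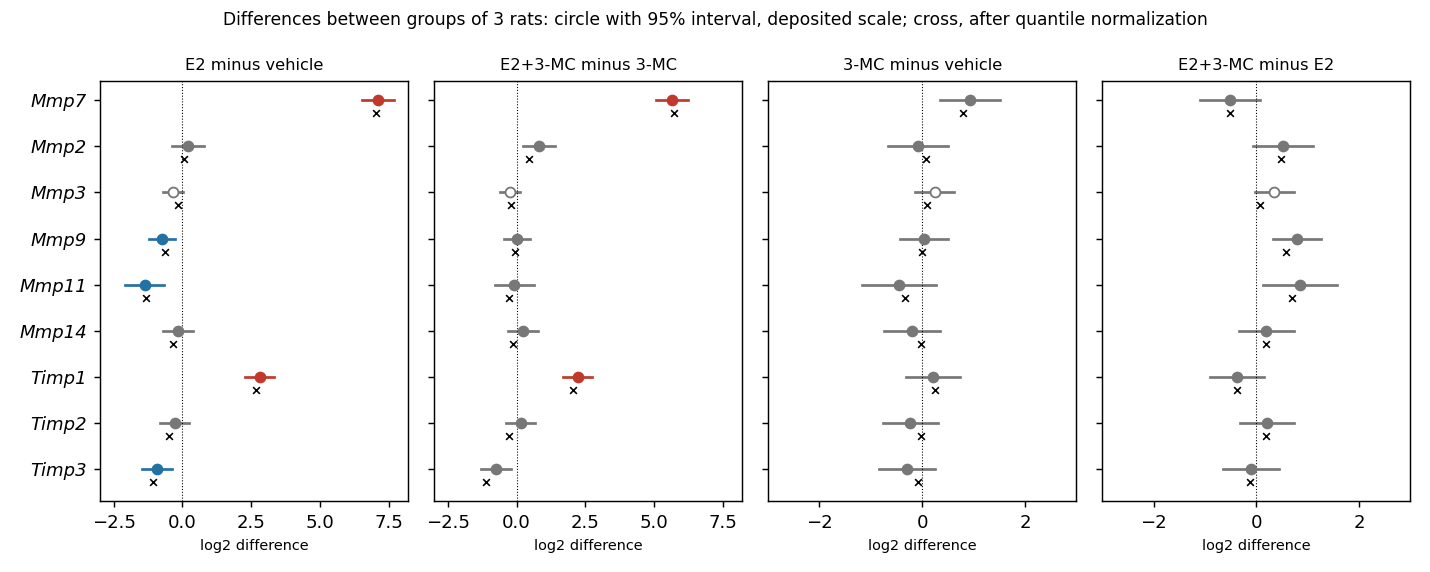
Log2 differences of the 9 genes in 4 comparisons, with 95% intervals. Filled red and blue points were called higher and lower, grey points were not called, the open point is the untested Mmp3, and crosses give the value after quantile normalization; the horizontal scale differs between the left and right pairs of panels.

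With 3-MC alone, 0 of the 8 tested members were called against vehicle, and 0% of all genes were. At an unadjusted p under 0.05, for which the share of all genes was not computed, 1 member passed. This was Mmp7, which was 0.94 ± 0.28 (SE) higher on the log2 scale (95% interval 0.35 to 1.52, limma, unadjusted p = 0.00350, adjusted p = 1.00) and higher in 3 of 3 rats than in any vehicle rat. The groups were separate for 3.1% of all genes. Both Mmp7 means were below the limit of 6.44 log2 units used for dim genes. Mmp11 was at -0.46 (-1.17 to 0.26), which turned to 0.04 without vehicle rat 1 and went to -0.84 without vehicle rat 3. Without vehicle rat 1 the 6 tested members other than Mmp7 and Mmp11 lay between 0.05 and 0.33, and none was called. For Timp1 the difference was 0.21 (-0.32 to 0.73).

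With E2+3-MC, 2 members rose against vehicle, Mmp7 and Timp1, and 1 fell, Timp3, while 7.84% of all genes were called, 6.06% higher and 1.78% lower. The groups did not overlap for 3 of the 8 members and for 17.9% of all genes. Timp3 fell by 1.04 ± 0.26 (SE) on the log2 scale (limma, adjusted p = 0.0172), and by 0.64 without vehicle rat 1 (adjusted p = 0.00592). That call was lost without any single one of the 3 E2+3-MC rats, at adjusted p-values of 0.0508 to 0.0620. Mmp9 was 0.05 (95% interval -0.42 to 0.52) from vehicle and Mmp11 was -0.53 (-1.25 to 0.19), neither called, and the Mmp11 value was -0.03 without vehicle rat 1.

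Set directly against E2, the combination called 0 of 8 members, with 0% of all genes called. At an unadjusted p under 0.05, with no share computed over all genes, 2 members passed. Those were Mmp9, higher by 0.80 ± 0.22 (SE; adjusted p = 0.486), and Mmp11, higher by 0.84 ± 0.34 (SE; limma, adjusted p = 0.515). For both genes all 3 E2+3-MC rats were above all 3 E2 rats, a separation that 17.9% of all genes showed. All genes tested had a median shift of 0.15 in this comparison on the deposited scale and of -0.01 after quantile normalization, when Mmp9 and Mmp11 stood at 0.59 and 0.69. Both were called when the 6 rats of these groups were fitted alone, at adjusted p-values of 0.0391 and 0.0301, where 1.42% of all genes were called. Both were also called when vehicle rat 1, which belongs to neither group but enters the common estimate of spread, was left out (0.0422 and 0.0446), where 1.1% of all genes were called. The interaction, the difference between the effect of 3-MC with E2 and without it, was called for 0 members and 0% of all genes. Its values were -1.45 ± 0.39 (SE) for Mmp7, 1.30 ± 0.48 for Mmp11 and 0.77 ± 0.31 for Mmp9, each with an adjusted p of 0.976 by limma. These 3 passed at an unadjusted p under 0.05, a threshold for which the share of all genes was not computed. The Mmp7 value includes the difference between 3-MC and vehicle at levels under the dim limit, and it ran from -1.81 to -1.02 over the alternatives. The Mmp11 value was 0.80 without vehicle rat 1.

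Mmp7 and Timp1 were lower in the combination than with E2 by 0.52 (95% interval -1.10 to 0.06) and 0.38 (-0.90 to 0.15) on the log2 scale, not called at adjusted p-values of 0.572 and 0.640 by limma. E2+3-MC rat 3, at 6239 for Mmp7, was within the E2 range, and rat 2, at 2415, was at the bottom. Without rat 2 the differences shrank to -0.17 and -0.09.

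Against 3-MC alone, E2+3-MC raised 2 members, Mmp7 and Timp1, and lowered 0, with 8.21% of all genes called, 6.82% higher and 1.39% lower. The groups did not overlap for 5 of the 8 members, against 37.3% of all genes. Mmp2 was 0.80 ± 0.28 (SE) higher (adjusted p = 0.0947) and Timp3 was -0.74 ± 0.26 (limma, adjusted p = 0.101). Without vehicle rat 1 both were called, at adjusted p-values of 0.00233 and 0.000782, as were 21.5% of all genes. This comparison shares its E2+3-MC rats with the previous ones, and the E2 and vehicle comparison shares its vehicle rats, so the comparisons are not separate evidence.

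The deposited arrays were not on a common distribution, and the calls depended on scaling, for members and for all genes. Quantile normalization took the share of all genes called from 18.2% to 38.5% for E2 against vehicle. That share went from 7.84% to 26.1% for E2+3-MC against vehicle, and from 8.21% to 26.1% against 3-MC. After quantile normalization Mmp14 and Timp2 were called lower with E2, by 0.35 and 0.48 on the log2 scale (limma, adjusted p = 0.0322 and 0.00196). Mmp2 was then called higher with E2+3-MC than with vehicle, by 0.55 (adjusted p = 0.0121), and Timp2 lower, at -0.29 (adjusted p = 0.0471). Between E2+3-MC and 3-MC, Mmp2 was then called higher, by 0.47 (adjusted p = 0.0261), and Timp3 lower, at -1.12 (adjusted p = 1.77e-05), while Mmp14 went from 0.23 to -0.15 and Timp2 from 0.15 to -0.27, neither of them called. The signs of Mmp7, Timp1 and Timp3 in the 3 comparisons of rats with and without E2 did not turn.

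**Figure D5:**
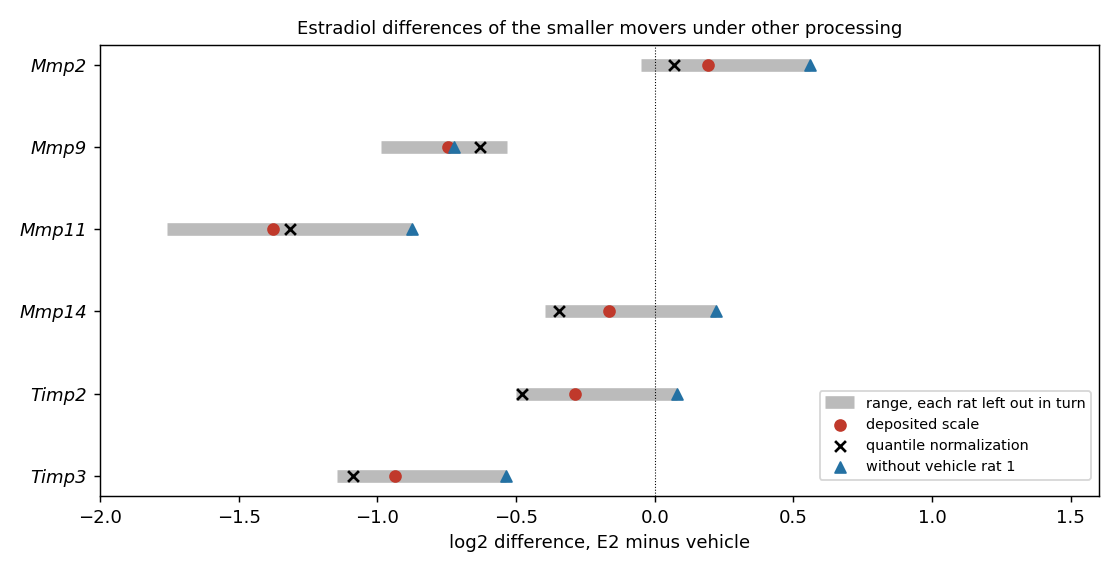
Log2 differences of Mmp2, Mmp9, Mmp11, Mmp14, Timp2 and Timp3 between E2 and vehicle. Circles give the deposited scale, crosses quantile normalization and triangles the fit without vehicle rat 1. Grey bars span the values with each rat left out in turn, and those of Mmp2, Mmp14 and Timp2 reach both sides of 0.

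Of 17 other family genes listed, 16 were measured and 8 were bright enough to be tested. With E2, 1 rose and 2 fell. Mmp17, a membrane-anchored MMP, had 82.3, 85.4 and 73.9 with vehicle and 160, 172 and 203 with E2, then 88.3, 72.8 and 65.2 with 3-MC and 158, 117 and 166 with E2+3-MC. The 6 rats given E2 were above the 6 others, and Mmp17 rose by 1.01 ± 0.19 (SE) with E2 (limma, adjusted p = 0.00128). It was also higher with E2+3-MC than with vehicle, by 0.74, and than with 3-MC, by 0.83. Mmp15, another membrane-type enzyme, fell by 0.99 (adjusted p = 0.00817) and Timp4, an inhibitor best known from the heart, fell by 0.68 (adjusted p = 0.0438) on the log2 scale. Mmp16, Mmp19, Mmp23, Mmp24 and Mmp28 lay between -0.38 and 0.01 and were not called. Leaving out E2 rat 3 left 1 of these 3 calls, while the share of all genes called went from 18.2% to 9.85%. The Timp4 call was lost without any one of 8 of the 12 rats (adjusted p up to 0.145), and its value went to -0.41 without vehicle rat 1.

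The proteases that open MMP zymogens, and the inhibitors of those proteases, leaned upward with E2. Of 15 tested, 5 rose and 0 fell, with a list median of 0.68 against -0.11 over all genes. The largest values were 1.70 for Pcsk6 and 0.88 for Furin, proprotein convertases, 1.17 for St14, matriptase, and 0.89 for the serine protease Tmprss2. Plau, urokinase, was 0.72 higher (limma, adjusted p = 0.0809) and was not called. Against 3-MC, E2+3-MC rats had 4 of 15 higher and 0 lower, Plau among them at 0.95 (adjusted p = 0.0438). Without vehicle rat 1 the count was 9 of 15 in either comparison, and the share of all genes called higher went from 8.7% to 23.7% in the first and from 6.82% to 17.1% in the second.

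Of 13 tested genes that otherwise bind, shed or regulate MMPs, 2 rose and 1 fell with E2, with a list median of 0.34. Over all genes, 8.7% rose and 9.45% fell. Lcn2, a lipocalin that binds MMP9, rose by 3.62 and A2m, a plasma protease trap, by 1.07, while the proteoglycan Spock2 fell by 0.86 on the log2 scale. The membrane inhibitor Reck was at -0.43 (limma, adjusted p = 0.145). Without vehicle rat 1, 8 rose and 1 fell, where 23.7% of all genes were called higher and 11.2% lower. Lcn2 and A2m were also the 2 called in E2+3-MC against 3-MC, at 3.18 and 0.95.

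The ADAM and ADAMTS proteases, relatives of the MMPs that shed surface proteins and cut proteoglycans, had 7 of 14 tested members higher and 0 lower with E2. Their list median was 0.51, and over all genes 8.7% were called higher and 9.45% lower. Adam28 rose by 2.02, Adamts3, a procollagen peptidase, by 1.70, Adam9 by 1.57 and Adamts12 by 1.08. In E2+3-MC against 3-MC, 6 of 14 were higher and 0 lower, Adamts3 by 1.61 and Adam28 by 1.41, beside 6.82% and 1.39% of all genes.

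Of 17 tested substrates, 6 rose and 0 fell with E2, with a list median of 0.54. Over all genes, 8.7% rose and 9.45% fell. The proteoglycan Vcan rose by 2.15, the cell surface proteoglycan Sdc1 by 1.51, and the type I collagen chains Col1a1 and Col1a2 by 1.48 and 1.08. Without vehicle rat 1, 13 rose and 2 fell, where 23.7% of all genes were called higher and 11.2% lower. In E2+3-MC against 3-MC, 5 of 17 rose and 0 fell, Vcan by 1.67 and Sdc1 by 1.58, beside 6.82% and 1.39% of all genes.

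Of 22 tested inducers and transcription factors linked to MMP genes, 6 rose and 5 fell with E2, or 4 and 3 without E2 rat 3. Over all genes, 8.7% rose and 9.45% fell, or 5.77% and 4.08% without that rat. Elf3, an epithelial Ets factor, rose by 3.53, Il1rn, the interleukin-1 receptor antagonist, by 2.95 and Fos by 2.57, while Tgfb3 fell by 1.52 on the log2 scale. Jun, the classical partner of Fos in AP-1, was at 0.01 (limma, adjusted p = 0.982). In E2+3-MC against 3-MC, 5 of 22 rose and 0 fell, Elf3 by 3.27 and Fos by 2.20, beside 6.82% and 1.39% of all genes.

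The E2+3-MC rats were also set against the vehicle rats for these lists, a comparison that called 6.06% of all genes higher and 1.78% lower. Higher and lower counts were 3 and 0 of 15 for the activators and their inhibitors, led by Pcsk6 at 1.16. For the other regulators they were 2 and 0 of 13, led by Lcn2 at 3.17. They were 6 and 0 of 14 for the ADAM and ADAMTS genes, led by Adamts3 at 1.69, and 4 and 0 of 17 for the substrates, led by Vcan at 1.74. For the inducers and transcription factors they were 4 and 1 of 22, led by Elf3 at 3.03. The counts against 3-MC depended on single rats. With each of the 12 rats left out in turn, the number called ran from 0 to 9 for the activators and their inhibitors. It ran from 1 to 7 for the other regulators and from 2 to 7 for the ADAM and ADAMTS genes. For the substrates it was 3 to 12 and for the inducers 3 to 9. The highest count always came without vehicle rat 1. Over all genes, the share called ran from 4.06% without 3-MC rat 2 to 21.5% without vehicle rat 1. The activators and their inhibitors had 0 calls without 3-MC rat 2, 3-MC rat 3 or E2+3-MC rat 3. The ADAM and ADAMTS genes had their 2 without 3-MC rat 2. Quantile normalization called 10 of the activators and their inhibitors higher and 1 lower with E2, and 10 substrates higher. It called 19% of all genes higher and 19.4% lower.

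In these lists none of the tested genes was called with 3-MC against vehicle or with E2+3-MC against E2. For 3-MC the values farthest from 0 were 0.61 for the secreted glycoprotein Spp1 and -0.49 for the Ets factor Etv5. For E2+3-MC against E2 they were 0.78 for Tgfb3 and -0.54 for Pcsk6. The limma adjusted p-values of these 4 were 1.00, 1.00, 0.514 and 0.556.

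A RefSeq start region to search existed for 6 members: Mmp3, Mmp7, Mmp11, Timp1, Timp2 and Timp3. The palindromic consensus estrogen response element, searched by its full letters, was in 0 of the 6 and in 0.0239% of all promoters over 250 bases. The core of the xenobiotic response element, GCGTG on either strand, was in 1 of the 6, Timp3, 212 bases before the start, and in 25.9% of all promoters. The Ets letters AGGAAG, on either strand, were in 3 of the 6, Mmp3, Mmp7 and Timp1, and in 29.5% of all promoters. AP-1 letters were in 2 of the 6, Mmp3 and Mmp7. These are matches of letters, and elements outside 250 bases were not searched.

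The remaining members called with E2 had smaller ranges than Mmp7 and Timp1, 1.51 for Mmp9, 2.70 for Mmp11 and 1.94 for Timp3 in log2 units. The nearest profiles of Mmp9 were Ces1f, Lrrc39 and Wfdc3. Those of Mmp11 were Slc7a8, Ddr2 and Gulp1, and those of Timp3 were Zmiz1, Atp1b2 and Degs2. The closest of each trio lay 0.12, 0.20 and 0.12 from its member in root mean square log2 units, over 12 arrays.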

How the data were processed

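Total RNA of each uterus was hybridised as biotinylated cRNA to 1 Affymetrix array. The deposited values are linear intensity summaries per probe set, made by the authors with Affymetrix Expression Console and PLIER, per the submitters' processing notes. The sources used here do not state versions, settings or a normalization between arrays. Of 29214 probe sets, 15310 had 1 symbol in the platform annotation, 323 had several and 13581 had none listed. The brightest probe set of each of 14506 genes was used, with intensities taken as log2(intensity + 16).

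The dimmest 30% of genes by mean over 12 arrays (limit 6.44) were left out, and 10154 were tested with limma 3.58.1 in R 4.3.3, all 4 groups in 1 fit (residual degrees of freedom 8, prior 8.92). P-values are two-sided, Benjamini-Hochberg adjusted over all genes tested, and called under 0.05. Each sets a difference between groups against a spread between rats that the 4 groups share and that is moderated over all genes tested. The number of arrays limits the precision. A test on simulated data recovered 59 of 100 genes changed by 1 log2 unit between E2 and vehicle and 100 of 100 changed by 2, and 15 and 84 of 100 for the interaction. The simulated noise was independent between genes, with no shift shared across an array. Recovery on the real arrays can therefore differ.

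Members and gene lists were chosen with earlier results of these data known. Named genes are the 9 members, the other family genes, up to 4 called genes per list and comparison (up to 2 by value where none was called), and the 3 nearest profiles of each member called with E2, plus 8 treatment markers. Fewer were named where a list repeated an earlier one. Plau and Reck (where not called), Jun and the remarks on single rats lie outside it and were added with their values in view. Alternatives covered the offset, the filter, normalization, array weights, a replicate block, fits of the compared groups alone and each rat left out. Sequences are from RefSeq, build GRCr8.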

Additional observations from a re-analysis of the deposited data

How the results depend on the processing

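Mmp7 and Timp1 were called higher in all 3 comparisons of rats with and without E2 under every alternative run, and their differences between E2 and vehicle ranged from 5.996 to 7.79 and from 2.59 to 2.92 on the log2 scale. The number of members called was less stable. For E2 against vehicle it was 5, and 3 with only the 6 compared arrays, without Mmp9 and Timp3 (9.47% of all genes called). It was 7 with quantile normalization and 6 with array weights (38.5% and 61%). For E2+3-MC against vehicle it was 3, and 5 with quantile normalization or array weights (26.1% and 44.9%), while only the compared arrays gave 2 (2.92%), without Timp3. For E2+3-MC against 3-MC it was 2, and 4 with quantile normalization, median centring, only the compared arrays or array weights (26.1%, 22%, 22.4% and 38.7%). With quantile normalization and vehicle rat 1 left out, chosen after seeing the data, it was 5 (34.2%), and Timp2 reversed to -0.27 (limma, adjusted p = 0.0220) from 0.15. For E2+3-MC against E2 it was 0, and 2 with only the compared arrays or 5 with array weights (1.42% and 50.5%). Array weights, fitted gene by gene because the default fit did not converge, also gave 1 call for 3-MC against vehicle and 4 for the interaction (0.0394% and 11%). The interaction uses all groups, so it was not run on fewer.

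With each rat left out in turn, the calls ranged from 2 to 6 for E2 against vehicle, 2 to 4 for E2+3-MC against vehicle, 0 to 2 against E2 and 2 to 4 against 3-MC. The shares of all genes called ranged, in that order, from 9.85% to 34.9%, 4.38% to 26.6%, 0% to 1.1% and 4.06% to 21.5%. The member calls were 0 to 0 for 3-MC against vehicle and for the interaction. Rats of the same number were not shown to be paired: correlations of their deviations ran from -0.27 to 0.24. The fit with the replicate block called 4 members for E2+3-MC against 3-MC (11.2% of all genes) and changed no other member count.

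Over all genes, the 1843 calls for E2 against vehicle became 3905 with quantile normalization, 3781 with median centring, 6197 with array weights, 962 with only the compared arrays and 3547 without vehicle rat 1. The cause of these changes was not tested.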
